A study of Mus musculus with 12 samples.

Results

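The 10 glycolysis genes described here are Slc2a1, Hk1, Hk2, Pfkl, Pfkp, Pfkfb3, Aldoa, Gapdh, Pgk1 and Ldha. They were taken by symbol from the 23997 genes listed for each library. All 10 passed the filter of at least 1 FPKM in 3 or more libraries, as did 10581 genes in all. FPKM is a fragment count scaled to the length of the transcript and to a size of its library, so that levels of different genes can be set side by side. RNA-seq was performed on bone marrow-derived macrophages (BMDMs) from male C57BL/6 mice of 8 to 10 weeks, grown for 7 days with recombinant human M-CSF at 10 ng/ml. The 12 libraries formed 4 groups of 3, namely untreated WT cells, untreated Pim1-/- cells, and cells of both genotypes treated with LPS, a bacterial ligand of TLR4, at 100 ng/ml for 4 h. The Pim1-/- mice carry a deletion of exons I to V of Pim1, which encodes a serine/threonine kinase, made by CRISPR/Cas9 editing. The labels do not say whether the libraries of a group came from separate mice or cultures, so p-values measure the spread between these libraries only, which may be technical.

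Glycolysis breaks glucose down to pyruvate in the cytosol and yields ATP without oxygen. Glucose enters through transporters, is trapped by hexokinases, is committed to the pathway by phosphofructokinase, and is then split and oxidised by a trunk of enzymes that most cells hold in excess, before lactate dehydrogenase turns pyruvate into lactate. Macrophages exposed to LPS are known for raising glucose uptake and lactate output. The transcription factor HIF-1 takes part in this change through the hypoxia response element, of whose core ACGTG is a form.

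RefSeq promoters (GRCm38.p6, 250 bases before to 50 bases after a start site) were found for all 10 genes, in 15 windows, since 4 genes have more than 1 start site. ACGTG on either strand was found in 10 of the 15 windows and in 8 of the 10 genes, and in 19.6% of the 32851 windows of the whole table, or for 21.8% of its 27025 symbols in any window. Pfkl and Pfkp held no ACGTG. Other forms of the core were not searched, so these windows may still hold them. The windows of the 10 genes held 51.3% to 69.7% G and C, and the whole table was not matched for this content. The shares are thus no test of enrichment. A match is a description of the sequence and does not show that a factor binds there. The windows printed are those of the 5 genes that were called between genotypes, and of Ldha, which had the most matches. Capitals mark ACGTG or, where the match lies on the opposite strand, CACGT. The palindrome CACGTG holds both and counts as 2 overlapping matches. The windows lie at chr4:119108495-119108794 on the + strand for Slc2a1, chr6:82774405-82774704 on the - strand for Hk2, chr10:78009758-78010057 on the - strand for Pfkl, chr2:11502041-11502340 on the - strand and chr2:11553880-11554179 on the - strand for 2 start sites of Pfkfb3, chrX:106186850-106187149 on the + strand for Pgk1 and chr7:46845554-46845853 on the + strand for Ldha, each written 5′ to 3′ on the strand of its gene.
Slc2a1: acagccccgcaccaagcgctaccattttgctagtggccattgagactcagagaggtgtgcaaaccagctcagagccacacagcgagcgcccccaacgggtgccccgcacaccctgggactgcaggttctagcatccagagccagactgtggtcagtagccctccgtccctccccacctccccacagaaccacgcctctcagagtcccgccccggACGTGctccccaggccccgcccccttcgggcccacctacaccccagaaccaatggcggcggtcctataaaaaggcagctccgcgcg
Hk2: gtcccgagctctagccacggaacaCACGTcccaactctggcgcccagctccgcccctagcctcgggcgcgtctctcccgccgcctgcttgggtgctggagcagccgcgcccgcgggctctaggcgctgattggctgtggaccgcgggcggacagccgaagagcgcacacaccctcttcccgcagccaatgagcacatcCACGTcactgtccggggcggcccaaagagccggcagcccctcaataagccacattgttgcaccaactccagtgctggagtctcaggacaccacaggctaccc
Pfkl: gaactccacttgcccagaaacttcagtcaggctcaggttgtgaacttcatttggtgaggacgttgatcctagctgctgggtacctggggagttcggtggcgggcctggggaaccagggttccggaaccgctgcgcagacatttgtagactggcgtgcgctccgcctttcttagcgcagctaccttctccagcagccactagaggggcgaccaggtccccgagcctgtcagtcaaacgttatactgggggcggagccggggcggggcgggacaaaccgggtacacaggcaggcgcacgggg
Pfkfb3 inner start: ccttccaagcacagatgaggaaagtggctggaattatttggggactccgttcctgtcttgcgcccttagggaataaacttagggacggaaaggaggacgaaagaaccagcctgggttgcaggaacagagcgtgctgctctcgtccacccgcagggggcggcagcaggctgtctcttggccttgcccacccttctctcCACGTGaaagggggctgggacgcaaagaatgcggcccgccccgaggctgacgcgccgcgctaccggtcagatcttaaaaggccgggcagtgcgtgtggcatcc
Pfkfb3 outer start: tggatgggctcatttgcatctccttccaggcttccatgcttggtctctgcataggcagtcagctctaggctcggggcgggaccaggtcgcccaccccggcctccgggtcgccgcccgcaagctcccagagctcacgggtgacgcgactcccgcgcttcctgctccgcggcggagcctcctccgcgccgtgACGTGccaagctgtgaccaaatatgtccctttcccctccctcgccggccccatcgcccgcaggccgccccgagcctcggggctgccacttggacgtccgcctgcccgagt
Pgk1: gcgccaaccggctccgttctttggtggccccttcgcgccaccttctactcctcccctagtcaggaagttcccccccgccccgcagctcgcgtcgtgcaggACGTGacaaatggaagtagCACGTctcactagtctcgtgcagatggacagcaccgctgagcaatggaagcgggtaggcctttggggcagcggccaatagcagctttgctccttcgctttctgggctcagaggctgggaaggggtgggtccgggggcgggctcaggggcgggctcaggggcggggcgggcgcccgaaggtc
Ldha: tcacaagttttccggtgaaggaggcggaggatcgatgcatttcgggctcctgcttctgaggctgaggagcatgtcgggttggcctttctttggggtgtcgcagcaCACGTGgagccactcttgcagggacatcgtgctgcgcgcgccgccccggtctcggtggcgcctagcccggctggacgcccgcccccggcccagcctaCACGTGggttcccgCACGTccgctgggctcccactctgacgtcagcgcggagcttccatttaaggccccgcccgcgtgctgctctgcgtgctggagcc
Counted in bases from the start site, the match of Slc2a1 began at −36, those of Hk2 at −226 and −52, and those of Pgk1 at −150 and −131. Ldha held 5 matches from −145 to −34, of which 4 belonged to a pair of CACGTG palindromes. CACGTG itself occurred in 7.15% of all windows.

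Pim1 was at 25.0, 21.5 and 22.3 FPKM in the untreated WT libraries and 8.70, 8.00 and 9.51 FPKM in the untreated Pim1-/- libraries. After LPS it was at 665, 630.2 and 641 FPKM in WT and 216, 205 and 236 FPKM in Pim1-/- cells. The groups did not overlap, and the signal that remained in Pim1-/- cells is a value for the whole gene that does not separate the deleted exons. Macrophage markers matched the label, since all 9 reached 1 FPKM in every group, with Lyz2 the highest. Their summed level was 27888 to 29937 FPKM in untreated WT, 14403 to 15320 in untreated Pim1-/-, 30807 to 31301 in LPS-treated WT and 15922 to 17785 in LPS-treated Pim1-/- cells. Lyz2 made up most of each sum, and its Pim1-/- mean was 50.6% of the WT mean without LPS and 51.1% with it. Over the 9 markers this share ran from 29.2% (Fcgr1) to 95.7% (Cd14) without LPS and from 22.4% (Fcgr1) to 91.3% (Cd14) with it. In Pim1-/- against WT cells 3 of the 9, Csf1r, Mertk and Fcgr1, were called lower in each treatment, where 3.37% of all genes were without LPS and 5.15% with it. Markers of dividing cells moved with the genotype as well. In untreated Pim1-/- cells 10 of 10 were called higher, against 4.4% of all genes (sums of 23.9 to 29.3 FPKM in WT and 362 to 368 in Pim1-/-). After LPS 9 of 10 were, against 3.51% of all genes (36.2 to 38.4 in WT and 146 to 156 in Pim1-/-). The exception was Mki67, whose Pim1-/- mean was 91.6% of the WT mean. Mki67 also made up most of the WT sum after LPS (mean of 28.6 FPKM, 9.84-fold above untreated). The other 9 were lower in WT cells after LPS at an FDR under 0.1, which 91.2% of all genes passed in either direction. The part of the genotype differences in these markers in the results below was not tested. The summed levels of other cell types were low in all libraries, at 3.01 to 9.82 FPKM for 8 neutrophil markers, 0.573 to 5.40 for 9 T, B and NK cell markers (Cd3e, Cd3g, Cd8a and Ncr1 at 0 throughout), 4.72 to 7.17 for 7 dendritic cell markers and 1.23 to 3.98 for 10 mast cell, stromal and erythroid markers (Mcpt4, Hbb-b1 and Hba-a1 at 0 throughout). In bulk RNA, fewer cells that express a gene and less RNA of it per cell cannot be told apart.

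With the values as deposited, all 10 glycolysis genes were higher in WT cells after LPS, though under at least 1 other scaling of the libraries Aldoa, Gapdh and Ldha turned below 0. The LPS effect in Pim1-/- cells lay below that in WT cells for each of the 10 as deposited, and for all but Aldoa under quantile scaling, although there the difference was near 0 for Hk2 (−0.03), and Gapdh and Ldha were lower after LPS in both genotypes, by more in Pim1-/- cells. Quantile scaling gives each library the same distribution of values, median-ratio scaling divides each by its median ratio to the average library, and scaling to equal assigned fragments puts all libraries on the same estimated number of fragments. Differences were fitted with limma on log2(FPKM + 1), which understates the change of low genes between groups. A difference between the LPS effects of the genotypes can be moved either way, since the effects are not shrunk equally. A gene was called when it passed 3 thresholds, namely a difference of over 2-fold, a p under 0.05 and, after Benjamini-Hochberg adjustment over all genes tested, an FDR under 0.1. In WT cells 7 of the 10 genes were called higher after LPS and 0 lower, where 20.1% of all genes tested were called higher and 14.7% lower (15.8% and 17.5% under quantile scaling, 10.7% and 35.9% when libraries were scaled to equal assigned fragments). The members called numbered 4 under either of these scalings, as Hk1, Pfkl and Pgk1 fell short of 2-fold. By the FDR alone all 10 were higher, but so broad a rule took 91.2% of all genes in either direction and separates little. The median difference was 1.35 for the 10 genes and 0.0015 for all genes tested. In Pim1-/- cells 4 of the 10 were called higher after LPS and 0 lower, where 14.6% of all genes were called higher and 10.4% lower (9.05% and 26.3% with equal assigned fragments, where 3 of the 10 were called and Slc2a1, at 0.76, was not). At an FDR under 0.1 there were 7 higher, against 87.2% of all genes in either direction, and the median difference was 0.69, against −0.013 for all genes.

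Between genotypes, members were higher and lower in untreated cells, with Pfkp, Aldoa, Gapdh, Pgk1 and Ldha higher and Hk2, Pfkl and Pfkfb3 lower in Pim1-/- cells, and most were lower in Pim1-/- cells after LPS. In untreated cells Pgk1 was called higher in Pim1-/- cells and none of the 10 was called lower, where 4.4% of all genes were called higher and 3.37% lower. At an FDR under 0.1 there were 5 higher and 3 lower, against 78.8% of all genes in either direction, and the median difference was 0.05, against −0.05 for all genes. After LPS 4 of the 10, Slc2a1, Hk2, Pfkl and Pfkfb3, were called lower in Pim1-/- cells, and 0 higher, where 5.15% of all genes were called lower and 3.51% higher (2.65% and 5.24% with equal assigned fragments). The FDR alone passed 8 lower and 2 higher, against 80.9% of all genes in either direction, and the median difference was −0.48, against −0.03 for all genes. The difference in LPS response, which is the LPS effect in Pim1-/- cells minus that in WT cells, was called lower for Slc2a1, Pfkp and Pfkfb3 and higher for 0 of the 10, where 4.43% of all genes were called lower and 2.24% higher (3.42% and 3.18% with equal assigned fragments). As deposited, all 10 differences in response were below 0 at an FDR under 0.1, against 68.5% of all genes in either direction, and their median was −0.80, against −0.0027 for all genes. Hk2 and Aldoa did not pass that FDR under quantile or equal-fragment scaling. These comparisons share libraries, so their values are not independent of each other.

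**Figure D1:**
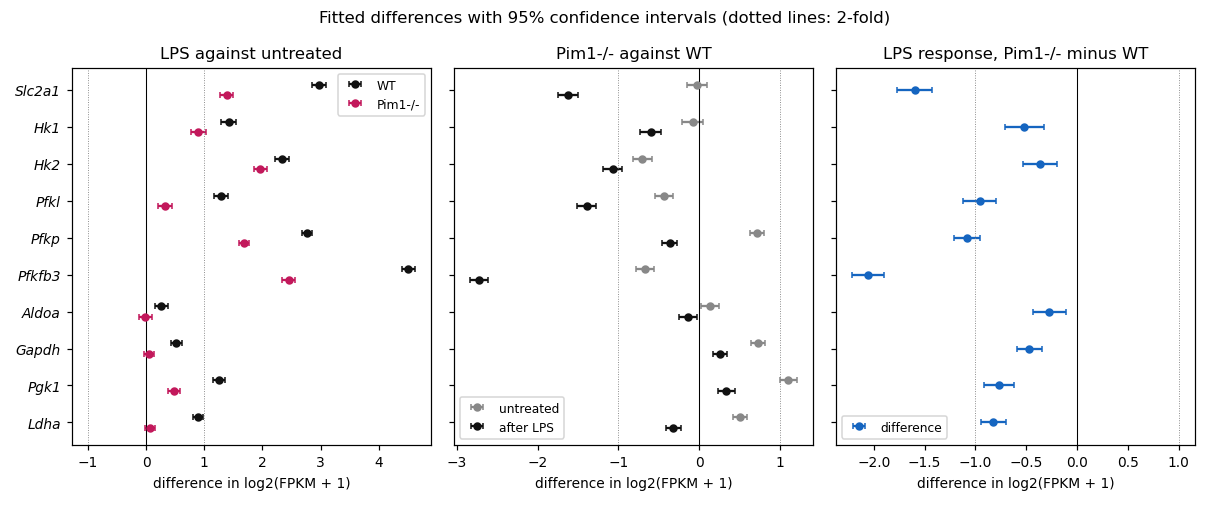
Fitted differences of the 10 glycolysis genes in log2(FPKM + 1), with 95% confidence intervals from limma, for LPS against untreated in each genotype (left), Pim1-/- against WT in each treatment (middle) and the LPS response of Pim1-/- minus WT (right). Dotted lines mark 2-fold; Pfkfb3 lies farthest from 0 in the left panel for WT (4.51) and in the middle panel after LPS (−2.73), and all 10 points of the right panel lie below 0.

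Slc2a1 (chr4:119108711-119137983, + strand) encodes GLUT1, the glucose transporter of most cells. It was at 9.66, 8.90 and 9.45 FPKM in the untreated WT libraries and 9.44, 8.62 and 9.36 FPKM in the untreated Pim1-/- libraries. After LPS Slc2a1 was at 85.1, 77.0 and 79.7 FPKM in WT and 25.5, 23.8 and 27.1 FPKM in Pim1-/- cells. The untreated genotypes overlapped, whereas after LPS every Pim1-/- library lay far below every WT library while staying above all untreated ones. The group mean rose 8.64-fold with LPS in WT cells and 2.79-fold in Pim1-/- cells, where its call was lost with equal assigned fragments (0.76 on the log2 scale), and after LPS the Pim1-/- mean was 31.6% of the WT mean. On the log2(FPKM + 1) scale the genotypes differed by −1.63 (standard error 0.056, adjusted p = 9.84e-13) after LPS. The difference in untreated cells was −0.03, with a 95% confidence interval of −0.15 to 0.09 (adjusted p = 0.669), and its sign turned to 0.0019 under quantile scaling, to 0.06 with equal assigned fragments and to 0.01 without Pim1-/- untreated replicate 2. The difference in LPS response, Pim1-/- minus WT, was −1.60 (standard error 0.079, adjusted p = 2.52e-10) on that scale.

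Hk1 (chr10:62268855-62379908, - strand) and Hk2 (chr6:82725025-82774454, - strand) encode hexokinases, which phosphorylate glucose. Hk1 is the widespread form and Hk2 the more inducible one. Hk1 was at 24.5, 23.4 and 23.7 FPKM in untreated WT and 21.4, 21.7 and 24.4 FPKM in untreated Pim1-/- cells. Hk1 was at 67.4, 63.7 and 65.1 FPKM in LPS-treated WT and 41.4, 39.9 and 47.5 FPKM in LPS-treated Pim1-/- cells. Its untreated genotypes overlapped and its LPS-treated genotypes did not. Hk2 was at 8.45, 8.54 and 8.58 FPKM in untreated WT and 4.71, 4.85 and 4.94 FPKM in untreated Pim1-/- cells. After LPS it was at 46.4, 47.2 and 47.3 FPKM in WT and 20.7, 20.6 and 24.3 FPKM in Pim1-/- cells. All 4 groups of Hk2 were apart, with Pim1-/- lower than WT in both treatments. The mean of Hk1 rose 2.74-fold with LPS in WT and 1.91-fold in Pim1-/- cells, and that of Hk2 rose 5.51-fold and 4.53-fold. The call of Hk1 in WT cells was lost under quantile scaling (0.75) and with equal assigned fragments (0.59). The fitted genotype difference of Hk2 was −0.71 (standard error 0.055, adjusted p = 1.51e-08) in untreated cells and −1.07 (standard error 0.055, adjusted p = 9.33e-11) after LPS. It lost its call after LPS under quantile scaling (−0.79) and with equal assigned fragments (−0.80), both short of 2-fold. For Hk1 it was −0.60 (standard error 0.062, adjusted p = 3.38e-07) after LPS and −0.08 in untreated cells (95% confidence interval −0.21 to 0.05, adjusted p = 0.246), the latter turning to 0.0085 with equal assigned fragments. As deposited the response to LPS was smaller in Pim1-/- cells for both, with differences of −0.52 (standard error 0.088, adjusted p = 0.00011) for Hk1 and −0.37 (standard error 0.078, adjusted p = 0.000774) for Hk2. Under quantile scaling the difference was −0.26 for Hk1 (limma adjusted p = 0.0269) and −0.03 for Hk2 (adjusted p = 0.76), and with equal assigned fragments it was −0.34 (adjusted p = 0.00612) and −0.15 (adjusted p = 0.128), so that of Hk2 depended on the scaling.

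Pfkl (chr10:77986947-78010083, - strand) and Pfkp (chr13:6579768-6648777, - strand) encode the liver and platelet subunits of phosphofructokinase 1, the committed step of the pathway. Pfkl was at 13.8, 13.3 and 13.2 FPKM in untreated WT and 9.57, 9.25 and 10.2 FPKM in untreated Pim1-/- cells. With LPS Pfkl was at 33.9, 34.0 and 34.4 FPKM in WT and 11.9, 11.6 and 13.6 FPKM in Pim1-/- cells. The LPS-treated Pim1-/- libraries of Pfkl overlapped with untreated WT cells and with no other group. Pfkp was at 11.6, 12.2 and 12.1 FPKM in untreated WT and 20.5, 19.7 and 20.7 FPKM in untreated Pim1-/- cells. With LPS Pfkp was at 86.3, 88.9 and 86.5 FPKM in WT and 66.0, 65.3 and 71.3 FPKM in Pim1-/- cells. Here the untreated Pim1-/- libraries lay above the untreated WT libraries, and as deposited the order turned after LPS. The mean of Pfkl rose 2.54-fold with LPS in WT cells, a call that was lost under quantile scaling (0.86) and with equal assigned fragments (0.47), and in Pim1-/- cells it was 1.28-fold higher, a fitted difference of 0.32 (standard error 0.055, adjusted p = 4.71e-05) that became −0.29 with equal assigned fragments. The mean of Pfkp rose 7.30-fold in WT and 3.33-fold in Pim1-/- cells. Between genotypes the fitted difference of Pfkl was −0.43 (standard error 0.055, adjusted p = 3.36e-06) in untreated cells and −1.39 (standard error 0.055, adjusted p = 4.26e-12) after LPS. For Pfkp it was 0.72 (standard error 0.043, adjusted p = 7.23e-10) in untreated cells and −0.37 (standard error 0.043, adjusted p = 1.46e-06) after LPS, which shrank to −0.08 under quantile scaling (adjusted p = 0.106) and −0.09 with equal assigned fragments (adjusted p = 0.0799). The difference in LPS response was −0.96 (standard error 0.077, adjusted p = 4.9e-08) for Pfkl and −1.08 (standard error 0.061, adjusted p = 1.04e-09) for Pfkp. The former fell short of 2-fold, but passed it at −1.02 without Pim1-/- LPS replicate 3, and the latter fell short of it under quantile scaling (−0.94) and with equal assigned fragments (−0.91).

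The ratio of isoenzymes within a library does not depend on the scaling of that library by a common factor. The ratio of Hk2 to Hk1 was 0.357 ± 0.0113 in untreated WT, 0.215 ± 0.0111 in untreated Pim1-/-, 0.719 ± 0.0271 in LPS-treated WT and 0.509 ± 0.0094 in LPS-treated Pim1-/- cells (SD, n = 3 each). Every LPS-treated library lay above the untreated libraries of its genotype, and every Pim1-/- library below the WT libraries of its treatment. The ratio of Pfkp to Pfkl was 0.892 ± 0.0424 in untreated WT, 2.10 ± 0.0601 in untreated Pim1-/-, 2.56 ± 0.0520 in LPS-treated WT and 5.47 ± 0.199 in LPS-treated Pim1-/- cells (SD, n = 3 each). It was higher in Pim1-/- cells by 2.36-fold in untreated cells and 2.14-fold after LPS, as ratios of geometric means. The 3 values of 1 group did not overlap those of the other in any of the 8 comparisons, each with p = 0.1 by an exact two-sided permutation test, which is the smallest p that 3 against 3 libraries can give and cannot pass 0.05. How often ratios of other gene pairs separate these groups was not examined. Since 78.8% to 91.2% of single genes passed an FDR under 0.1 in these comparisons, the lack of overlap by itself says little.

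**Figure D2:**
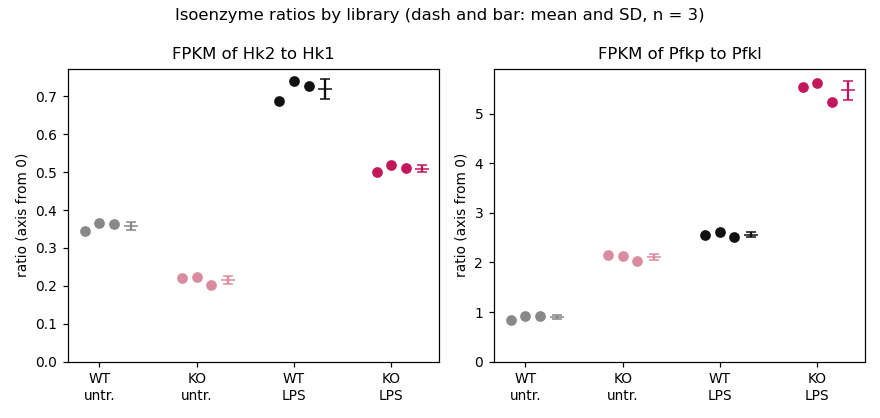
Ratio of FPKM within each library for Hk2 to Hk1 (left) and Pfkp to Pfkl (right) in the 4 groups, with axes from 0; points are libraries, and the dash and bar are the mean and SD (n = 3). The mean ratio of Pfkp to Pfkl runs from 0.892 in untreated WT to 5.47 in LPS-treated Pim1-/- cells, and that of Hk2 to Hk1 is highest in LPS-treated WT cells at 0.719.

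Pfkfb3 (chr2:11471433-11554077, - strand) encodes an enzyme that makes fructose 2,6-bisphosphate, a potent activator of phosphofructokinase 1. It was at 6.86, 7.31 and 7.43 FPKM in untreated WT and 4.06, 4.19 and 4.19 FPKM in untreated Pim1-/- cells. After LPS Pfkfb3 was at 189, 184 and 184 FPKM in WT and 26.3, 25.7 and 29.8 FPKM in Pim1-/- cells. The lowest of the 10 genes in untreated cells of both genotypes thus became the fifth highest in LPS-treated WT cells, and the 4 groups did not overlap. Its mean rose 25.8-fold with LPS in WT and 6.57-fold in Pim1-/- cells, which left the Pim1-/- mean at 14.7% of the WT mean after LPS and 57.6% without it. The fitted genotype difference was −2.73 (standard error 0.053, adjusted p = 3.26e-15) after LPS and −0.67 (standard error 0.053, adjusted p = 1.84e-08) in untreated cells. The difference in response, −2.05 (standard error 0.075, adjusted p = 9.13e-12), was the farthest from 0 among the 10 genes. Leaving out 1 library at a time gave values from −2.12 to −2.01.

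Aldoa (aldolase A, which splits fructose 1,6-bisphosphate), Gapdh (glyceraldehyde-3-phosphate dehydrogenase) and Pgk1 (phosphoglycerate kinase, the first step that yields ATP) belong to the trunk of the pathway. Gapdh lies at chr6:125161715-125166467, - strand, Pgk1 at chrX:106187100-106203699, + strand, and Aldoa is annotated as 2 adjoining genes, at chr7:126795234-126800751, - strand, and chr7:126800790-126809108 on the same strand. Aldoa was at 507, 489 and 484 FPKM in untreated WT and 548, 510.3 and 564 FPKM in untreated Pim1-/- cells. Aldoa was at 609.7, 565 and 596 FPKM in LPS-treated WT and 538, 499 and 571 FPKM in LPS-treated Pim1-/- cells. These groups lay close together, and the LPS-treated Pim1-/- libraries overlapped with each of the other groups. Gapdh was at 707, 706 and 677 FPKM in untreated WT and 1159.8, 1125 and 1179.95 FPKM in untreated Pim1-/- cells. With LPS Gapdh was at 1049.99, 958 and 994 FPKM in WT and 1199.6, 1198 and 1194 FPKM in Pim1-/- cells. All 6 Pim1-/- libraries of Gapdh lay above all 6 WT libraries. Pgk1 was at 162, 163 and 153 FPKM in untreated WT and 363, 345 and 326 FPKM in untreated Pim1-/- cells. With LPS Pgk1 was at 384, 385 and 376 FPKM in WT and 503, 493 and 452 FPKM in Pim1-/- cells. Untreated WT cells were lowest for Pgk1 and LPS-treated Pim1-/- cells highest, with no overlap between any groups.

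Between genotypes, the untreated fitted difference was 0.73 (standard error 0.042, adjusted p = 4.03e-10) for Gapdh, 1.10 (standard error 0.049, adjusted p = 1.75e-11) for Pgk1 and 0.13 (standard error 0.053, adjusted p = 0.0348) for Aldoa. After LPS it was 0.26 (standard error 0.042, adjusted p = 3.95e-05) for Gapdh and 0.34 (standard error 0.049, adjusted p = 1.41e-05) for Pgk1, so that these enzymes were higher in Pim1-/- cells in both treatments under each of the 4 scalings used. For Aldoa it was −0.14 (standard error 0.053, adjusted p = 0.0247) after LPS, with a sign that turned to 0.12 under quantile scaling and 0.13 with equal assigned fragments. The effect of LPS on the trunk depended on the scaling. In WT cells it was 0.26 for Aldoa as deposited, −0.92 under quantile scaling and −0.59 with equal assigned fragments, and for Gapdh it was 0.52, −0.46 and −0.33. Pgk1 was called higher in WT cells after LPS at 1.25 and kept its sign, but not its call, at 0.12 and 0.41. In Pim1-/- cells LPS gave 0.49 for Pgk1 as deposited and −0.45 and −0.18 under the same alternatives. In Pim1-/- cells the LPS effect was 0.05 for Gapdh (95% confidence interval −0.04 to 0.14, adjusted p = 0.254) and −0.01 for Aldoa (−0.13 to 0.10, adjusted p = 0.808). Under quantile scaling these became −0.65 for Gapdh (adjusted p = 2.17e-09) and −0.87 for Aldoa (adjusted p = 6.36e-10), and with equal assigned fragments −0.61 (adjusted p = 2.04e-10) and −0.68 (adjusted p = 5.3e-09). The difference in LPS response was −0.77 for Pgk1, −0.47 for Gapdh and −0.27 for Aldoa (adjusted p = 1.71e-07, 5.99e-06 and 0.00528), of which those of Gapdh and Aldoa were −0.19 and 0.04 under quantile scaling and −0.29 and −0.09 with equal assigned fragments.

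Ldha (chr7:46841475-46855627, + strand) encodes the A subunit of lactate dehydrogenase. It was at 238, 247 and 230.4 FPKM in untreated WT and 354, 326 and 337 FPKM in untreated Pim1-/- cells. After LPS Ldha was at 457, 439 and 435 FPKM in WT and 359.6, 353 and 354 FPKM in Pim1-/- cells. The untreated WT libraries were lowest and the LPS-treated WT libraries highest, while the Pim1-/- libraries of both treatments lay between them and overlapped with each other. The genotype difference was 0.51 (standard error 0.042, adjusted p = 3.06e-08) in untreated cells and −0.32 (standard error 0.042, adjusted p = 4.64e-06) after LPS, the latter at 0.00098 under quantile scaling and −0.04 with equal assigned fragments. LPS moved Ldha by 0.89 (standard error 0.042, adjusted p = 6.09e-12) in WT cells, a value that became −0.45 under quantile scaling and 0.05 with equal assigned fragments. In Pim1-/- cells it was 0.07 (95% confidence interval −0.02 to 0.16, adjusted p = 0.141), with −0.02 under median-ratio scaling, −0.80 under quantile scaling and −0.60 with equal assigned fragments. The difference in response was −0.82 (standard error 0.059, adjusted p = 1.34e-08), and −0.35 under quantile scaling (adjusted p = 9.67e-06).

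**Figure D3:**
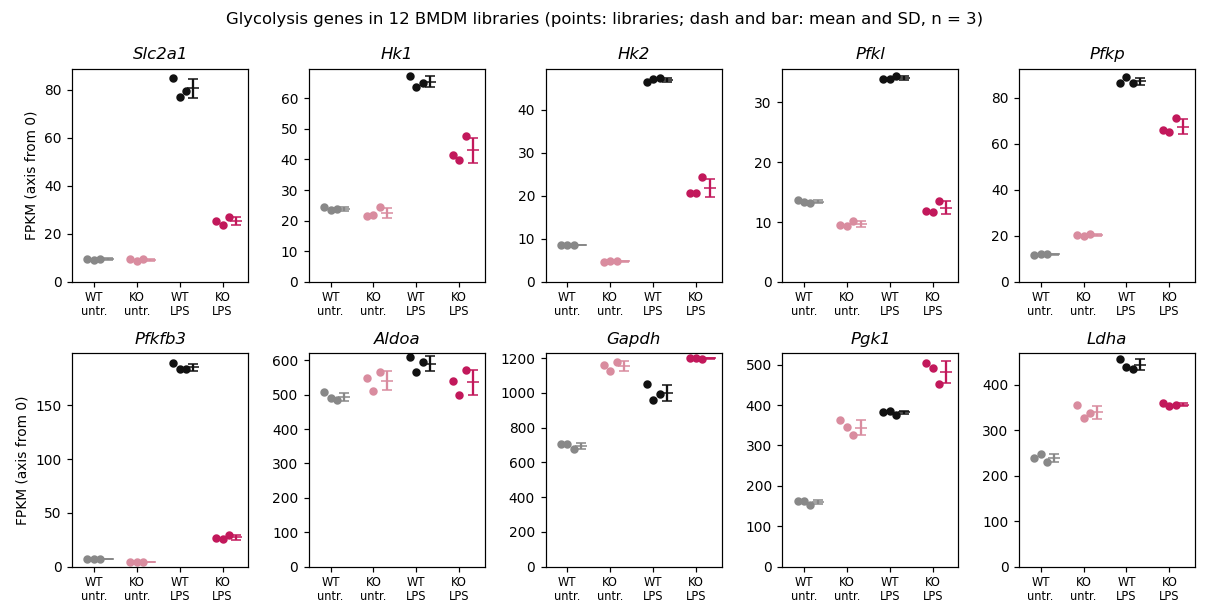
FPKM of the 10 glycolysis genes in the 12 libraries, each panel with its own axis from 0; points are libraries, and the dash and bar are the mean and SD of a group (n = 3). Slc2a1, Hk2, Pfkl and Pfkfb3 are highest in LPS-treated WT cells and well below that in LPS-treated Pim1-/- cells, whereas Gapdh and Pgk1 are highest in LPS-treated Pim1-/- cells.

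Near-identical copies may make the values of the trunk enzymes and Ldha less certain, because Gapdh, Aldoa, Pgk1 and Ldha have processed pseudogenes that can share their reads. How shared reads were assigned is not given in the sources used here, and the pseudogenes themselves were not examined. Of the related copies that are listed, Gapdhs, Aldoart1, Ldhc and Hkdc1 were at 0 in all libraries, and Pgk2, Aldoart2 and Ldhal6b reached at most 0.022, 0.053 and 0.106 FPKM. Eno1b, a copy of enolase 1, was the only one at 1 FPKM or more, from 3.76 to 6.78 FPKM.

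Levels per transcript length spanned a wide range. In each group Gapdh and Aldoa were the highest, followed by Ldha and Pgk1 in either order, and these 4 genes made up 95.4% to 95.6% of the summed FPKM of the 10 in untreated WT libraries, 97.0% to 97.2% in untreated Pim1-/-, 82.6% to 83.1% in LPS-treated WT and 92.3% to 93.2% in LPS-treated Pim1-/- libraries. The sum itself was 1619 to 1689.8 FPKM in untreated WT, 2375 to 2495 in untreated Pim1-/-, 2842 to 3009 in LPS-treated WT and 2729.6 to 2793 in LPS-treated Pim1-/- cells. In both WT groups neighbours in the order of levels did not overlap. In untreated Pim1-/- cells Pgk1 and Ldha overlapped, as did Pfkl and Slc2a1. In LPS-treated Pim1-/- cells Aldoa overlapped with Pgk1, Pfkfb3 with Slc2a1, and Slc2a1 with Hk2.

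Of 21 other glycolysis enzymes and transporters, 19 could be tested. In WT cells after LPS 2 of them were called higher and 5 lower, where 20.1% of all genes were called higher and 14.7% lower. Their median was −0.27. The values of these and the related genes below are fitted differences in log2(FPKM + 1), and each that was called kept its direction under the 3 other scalings, though some calls were lost. Of the 21 called in WT cells after LPS, 2 lost their call under quantile scaling and 5 with equal assigned fragments. Slc2a6, which encodes a glucose transporter of lysosomes, had 4.89 (mean of 31.2 FPKM in untreated and 956 FPKM in LPS-treated WT cells) and Hk3, a hexokinase of myeloid cells, 1.60 (not called under quantile scaling, at 0.61, or equal fragments, at 0.76). The called decreases were those of the transporters Slc2a3 (−1.76) and Slc2a8 (−1.69), of Pfkfb2 (−1.59) and Pfkfb4 (−1.50), which are relatives of Pfkfb3, and of Pfkm (−1.16), the muscle subunit of phosphofructokinase 1. In WT cells LPS thus went with more Pfkfb3 and less Pfkfb2 and Pfkfb4, and with more Slc2a1 and less Slc2a3. Between genotypes 0 of the 19 were called in either treatment by limma, and their medians were −0.16 (untreated) and −0.00082 (LPS). Of all genes 4.4% were called higher and 3.37% lower in untreated cells, and 3.51% and 5.15% after LPS. At an FDR under 0.1 there were 7 higher and 9 lower without treatment, where 78.8% of all genes passed in either direction. With LPS there were 8 higher and 6 lower, where 80.9% of all genes passed, so this rule separates little.

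Of 14 genes for the fates of pyruvate and lactate, 13 were tested. Slc16a3 encodes MCT4, the transporter that exports lactate, and was at 10.0, 9.56 and 9.46 FPKM in untreated WT and 9.50, 8.38 and 8.86 FPKM in untreated Pim1-/- cells. After LPS Slc16a3 was at 46.3, 40.3 and 43.6 FPKM in WT and 13.7, 12.4 and 14.0 FPKM in Pim1-/- cells. Like Slc2a1, it did not separate the untreated genotypes and was far lower in LPS-treated Pim1-/- than WT cells, by a fitted difference of −1.63 (standard error 0.060, adjusted p = 2.13e-12). It was the 1 gene of the 13 called between genotypes after LPS, where 5.15% of all genes were called lower. Slc16a1, which encodes the lactate transporter MCT1, was the 1 called in untreated cells (1.13), where 4.4% of all genes were called higher. In WT cells LPS raised Slc16a3 (2.05), the pyruvate dehydrogenase kinase Pdk3 (1.62) and Dld (1.53), a subunit of pyruvate dehydrogenase, and lowered the kinase Pdk2 (−2.78), the 4 called of the list. Of all genes 20.1% were called higher and 14.7% lower in that comparison. Dld lost its call under quantile scaling (0.74) and with equal assigned fragments (0.69), and Pdk3 with the latter (0.85).

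The 8 genes of the pentose phosphate pathway, which branches off after hexokinase, were all tested. LPS raised Rpe (1.90) and lowered Shpk (−1.29) in WT cells, where 20.1% of all genes were called higher and 14.7% lower. Between genotypes 0 of the 8 were called in either treatment by limma. Of all genes 4.4% were called higher and 3.37% lower in untreated cells, and 3.51% and 5.15% after LPS, so a list this short may well hold none. The FDR alone passed 6 of the 8 in each treatment, against 78.8% of all genes without treatment and 80.9% with LPS. Among 20 genes of the HIF-1 pathway and its targets, 18 were tested, with medians of −0.12 for LPS in WT cells, −0.11 between untreated genotypes and −0.23 between genotypes after LPS. Hif1a, the oxygen-regulated subunit of HIF-1, was at 13.3 ± 0.713 FPKM in untreated WT and 14.9 ± 1.22 FPKM in untreated Pim1-/- cells, and at 71.1 ± 4.33 and 45.0 ± 2.09 FPKM after LPS (SD, n = 3 each). In WT cells after LPS 3 of the 18 were called higher, namely Hif1a (2.33), P4ha1 (2.17) and Higd1a (1.54). Vegfa (−2.39) and Mxi1 (−1.52) were called lower. Of all genes 20.1% were called higher and 14.7% lower, so the list does not stand out by its calls. Higd1a was no longer called at equal assigned fragments (0.75). Between genotypes after LPS the mitophagy receptor Bnip3 (−1.19) and Egln1 (−1.05), a hydroxylase that marks HIF for degradation, were called lower, as were Ndrg1 (−1.07) and Vegfa (−1.04) in untreated cells. Of all genes 5.15% were called lower after LPS and 3.37% in untreated cells. None of the 4 genotype calls of the list held under all 4 scalings. Bnip3 and Egln1 were short of 2-fold under quantile scaling (−0.98 and −0.94) and with equal assigned fragments (−0.92 and −0.79), and Ndrg1 and Vegfa with equal assigned fragments (−0.99 and −0.97). Hif1a itself differed by −0.65 (standard error 0.062, adjusted p = 1.38e-07) after LPS, short of 2-fold. Of 8 genes that restrain glucose use or serve gluconeogenesis, 4 were tested. Txnip, which lowers glucose uptake, was at 337 ± 1.57 FPKM in untreated WT and 85.2 ± 5.57 FPKM in untreated Pim1-/- cells, and at 47.3 ± 0.959 and 41.4 ± 0.498 FPKM after LPS (SD, n = 3 each). Txnip (−1.97) and its relative Arrdc4 (−1.29) were called lower in untreated Pim1-/- cells, where 3.37% of all genes were. After LPS the 1 call was Pck2 (1.76), the mitochondrial form of a gluconeogenic enzyme, where 3.51% of all genes were called higher. In WT cells LPS lowered Txnip (−2.81) and Pck2 (−2.94) and raised Arrdc4 (1.24, but 0.46 and not called with equal assigned fragments). Of all genes 14.7% were called lower and 20.1% higher in that comparison.

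**Figure D4:**
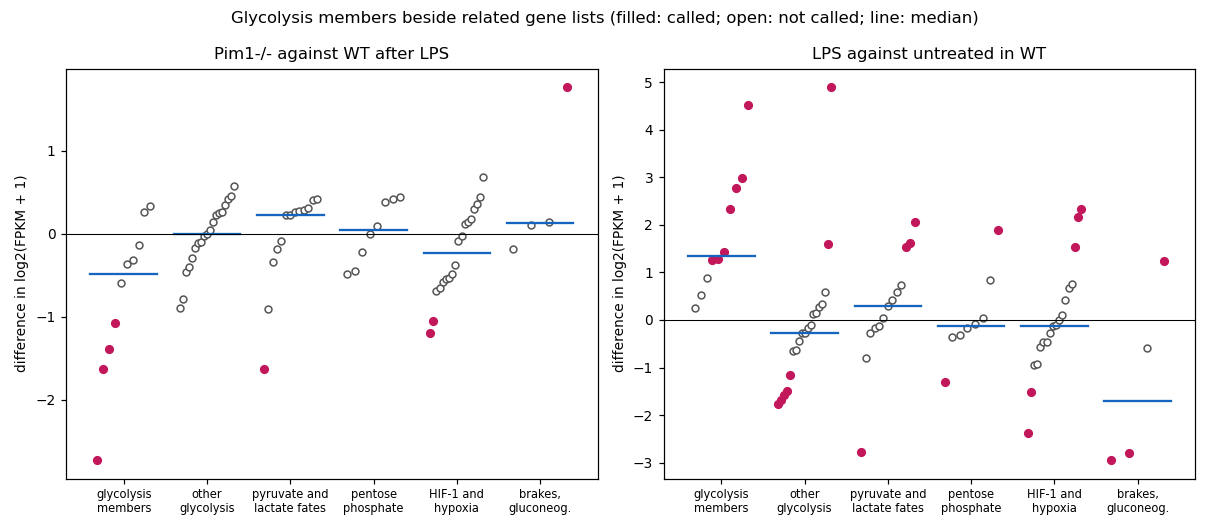
Fitted differences in log2(FPKM + 1) of the 10 glycolysis genes and 5 related lists, for Pim1-/- against WT after LPS (left) and LPS against untreated in WT (right); points are genes in order of value, filled where called, and lines are list medians. The 10 genes have medians of −0.48 and 1.35, and the other 19 glycolysis genes −0.00082 and −0.27. The lists were chosen with earlier results of these data known, so the medians are a description and not a test between lists.

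The genes whose log2(FPKM + 1) followed a member most closely over the 12 libraries, among 5416 genes averaging 10 FPKM or more, were listed as a description. The 12 points fall into 4 groups, so the coefficient mainly reflects the 4 group levels. For Slc2a1 these were Fscn1 (Pearson's r = 0.9984), Ube2z (0.9979) and Ywhag (0.9978). For Ldha they were U2af1 (0.99), Cdk14 (0.9885) and Ywhah (0.9875). Like Slc2a1, Fscn1 was low in untreated cells of both genotypes (0.578 FPKM in WT and 0.227 in Pim1-/-) and higher after LPS in WT (87.1 FPKM) than in Pim1-/- cells (8.34 FPKM). No member of the other lists was among them.

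The scaling of the libraries bears on every LPS effect given above. Low values of single-transcript genes fall on multiples of what 1 fragment is worth (71.8% to 83.9% of values within 0.1 of a whole number), which gives the number of fragments each library was scaled to, from 37600000 to 45900000 in untreated and from 20800000 to 32350000 in LPS-treated libraries. With the longest transcript of each gene, the fragments assigned to genes were estimated at 35700000 to 46600000 in all libraries, without such a gap. With the median transcript length the estimate was 16200000 to 22300000, again without such a gap, so the depth itself is uncertain. The lowest value of a member rests on an estimated 769 fragments, also with the longest transcript. Summed FPKM were 452511 to 489710 in untreated and 713307 to 849323 in LPS-treated libraries. Scaled to equal assigned fragments, the median of all genes in WT cells after LPS moved from 0.0015 to −0.70, and in Pim1-/- cells from −0.01 to −0.59. It was −0.10 and −0.09 under median-ratio and −0.17 in both genotypes under quantile scaling. Relative to the median of all genes, the median of the 10 in WT cells after LPS was 1.35 as deposited, 1.34, 0.98 and 1.23 under median-ratio, quantile and equal-fragment scaling, and in Pim1-/- cells 0.71, 0.70, 0.52 and 0.63. Between genotypes after LPS the same relative median was −0.45, −0.45, −0.20 and −0.38, and for the difference in response −0.79, −0.79, −0.49 and −0.75. Slc2a1, Hk2, Pfkp and Pfkfb3 stayed called higher in WT cells after LPS, and Slc2a1, Pfkl and Pfkfb3 stayed called lower in Pim1-/- cells after LPS, under each of the 4 scalings.

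**Figure D5:**
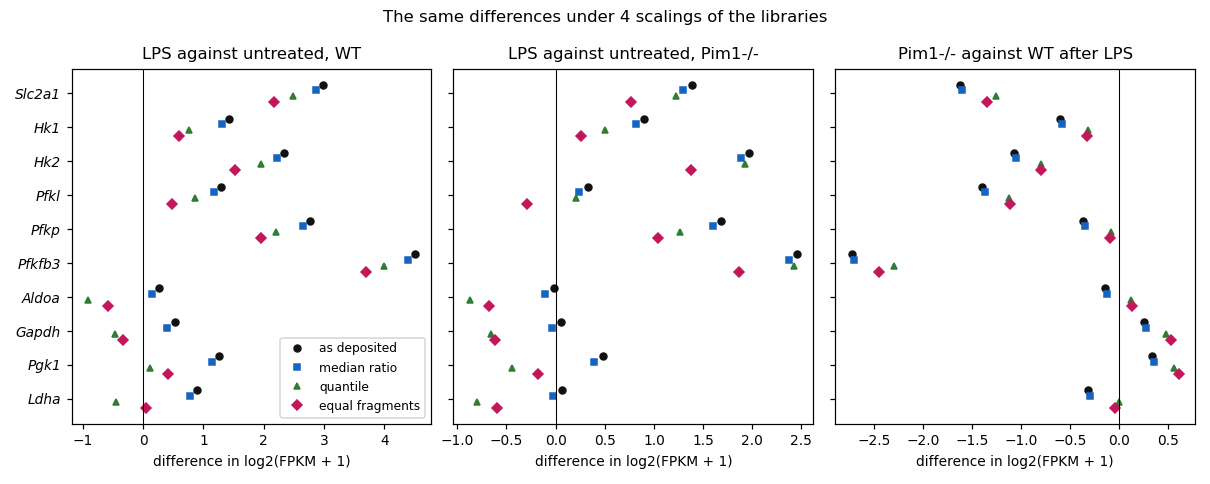
Fitted differences in log2(FPKM + 1) of the 10 genes under 4 scalings of the libraries, for LPS against untreated in WT (left) and Pim1-/- cells (middle) and for Pim1-/- against WT after LPS (right). Aldoa and Gapdh change side of 0 between scalings in the left panel (Aldoa from 0.26 to −0.92), while Slc2a1 and Pfkfb3 keep their side of 0 in every panel. Slc2a1 falls short of 2-fold in the middle panel with equal assigned fragments.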

How the data were processed

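mRNA of WT and Pim1-/- BMDMs, untreated or treated with LPS, was sequenced from stranded libraries (TruSeq). The submitters' processing notes name bcl2fastq (2.20.0.422), cutadapt (1.18), TopHat2 (2.0.13), Cuffdiff (2.2.1) and the mouse build mm10, whereas the paper's methods name rat rn5. Of 23997 symbols, 22694 (94.57%) are in the mouse annotation GENCODE M21, whose coordinates (GRCm38) are given. The authors deposited 1 column per library without a unit, which was read as FPKM from the use of Cuffdiff and from the sums of the columns. How libraries were normalized, and to which annotation, is not given in the sources used here. As deposited, the FPKM values entered every test.

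Groups were taken from the labels. Genes with 1 FPKM or more in at least 3 of the 12 libraries (10581) were tested on log2(FPKM + 1) with limma (3.58.1) in R (4.3.3). The model held a mean for each of 4 groups, a mean-variance trend, 5 contrasts and Benjamini-Hochberg adjustment over all genes tested. The thresholds (2-fold, p 0.05, FDR 0.1) are those of the study's ontology analysis. The fit was tested on simulated data. Isoenzyme ratios were compared by exact permutation. Promoters came from RefSeq. Python 3.11.15, pandas 2.3.3, numpy 2.4.6, scipy 1.17.1 and matplotlib 3.10.9 were used.

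The 10 genes, the related lists and the markers were chosen with earlier results of these data known. All 10 genes are named, and of each related list up to 6 called genes with the largest change in a comparison. Likeness was listed for Slc2a1, Hk2, Pfkfb3 and Ldha; that of Hk2 and Pfkfb3 is not reported here. Fscn1 was chosen for its values after they were seen.

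The libraries of different groups share replicate numbers. Over 3646 genes with 10 FPKM or more in every library, deviations of same-numbered libraries from their group means correlated at 0.426, 0.541 and 0.683 between treatments in Pim1-/- cells and at 0.326, 0.37 and 0.456 between untreated genotypes. They correlated at −0.103 to 0.191 between treatments in WT. Between genotypes after LPS the values were 0.02 to 0.366, the highest of which lies within the range of the untreated genotypes. The labels do not say what a shared number marks, so whether the numbers pair libraries is not known. Alternatives covered scaling, the filter, the pseudocount, the trend, the samples fitted, the replicate block and leaving out each library.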

Additional observations from a re-analysis of the deposited data

Results flagged for a closer look

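Of the 10 glycolysis genes and the related lists, 12 genes differed between genotypes by more than 2-fold in their response to LPS, by limma's test of the difference itself with Benjamini-Hochberg adjustment over the 10581 genes tested, of which 469 (4.43%) were called lower and 237 (2.24%) higher. The values are Pim1-/- minus WT in log2(FPKM + 1). Among the 10 glycolysis genes they were −1.60 for Slc2a1, −1.08 for Pfkp and −2.05 for Pfkfb3, each a smaller response in Pim1-/- cells. The mean of Pfkp went from 12.0 to 87.2 FPKM with LPS in WT and from 20.3 to 67.5 FPKM in Pim1-/- cells. Its genotypes were thus apart in untreated cells too, and their difference after LPS shrank under quantile and equal-fragment scaling.

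The other 9 genes belong to the related lists. The lactate transporters had −1.52 (Slc16a3, adjusted p = 9.5e-10) and −1.47 (Slc16a1, adjusted p = 2.67e-08), where the mean of Slc16a1 went from 1.97 to 3.50 FPKM with LPS in WT and from 5.53 to 2.56 FPKM in Pim1-/- cells. Of the pyruvate dehydrogenase kinases, Pdk3 had −1.11 (adjusted p = 8.88e-08) and Pdk2 1.20 (adjusted p = 6.71e-07). Pdk2 was at 7.45 and 0.233 FPKM in WT and at 3.44 and 0.478 FPKM in Pim1-/- cells, so its LPS-treated values were under 1 FPKM. Of the hypoxia targets, Bnip3 had −1.01 (adjusted p = 1.71e-07) and Ndrg1 1.36 (adjusted p = 2.69e-11), the mean of Ndrg1 going from 43.0 to 30.9 FPKM in WT and from 20.0 to 38.1 FPKM in Pim1-/- cells. Txnip had 1.79 (adjusted p = 6.59e-12), Pck2 1.57 (adjusted p = 1.02e-08) and Arrdc4 1.40 (adjusted p = 2.43e-09). For Txnip and Arrdc4 the genotypes were apart in untreated cells and differed by less than 2-fold after LPS. Bnip3 (−0.80 and −0.82) and Pdk3 (−0.99 and −0.94) fell short of 2-fold under quantile and equal-fragment scaling, as did Pfkp, and Bnip3 also under median-ratio scaling (−0.98). Groups of 3 libraries were too small for a test of single outlying libraries.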

How the results depend on the processing

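Among 1040 values of the 10 genes over all comparisons and alternatives, 1004 kept direction and side of the thresholds. No gene changed call or direction with a replicate block (7, 4, 1, 4 and 3 genes called in the 5 comparisons, as without it), without a trend, with a pseudocount of 0.1, with only the groups compared (not possible for the difference in response, which uses all 4 groups), with a filter of 5 FPKM or with none. Leaving out 1 library gave 7, 4, 1 and 4 called genes each time, and 3 or 4 for the difference in response. The member medians lay between 1.34 and 1.37 (WT, LPS), 0.68 and 0.71 (Pim1-/-, LPS), 0.03 and 0.09 (genotypes, untreated), −0.54 and −0.45 (genotypes, LPS) and −0.82 and −0.76 (difference in response).

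Scaling mattered more. Genes called in WT cells after LPS numbered 4 under quantile scaling and 4 with equal assigned fragments, a scaling chosen after seeing the data, where Hk1, Pfkl and Pgk1 lost their calls. The median in WT cells after LPS was 1.24 under median-ratio, 0.81 under quantile and 0.53 under equal-fragment scaling, and in Pim1-/- cells 0.60, 0.35 and 0.038. Equal fragments gave 0.14 between untreated genotypes. Between genotypes after LPS the median was −0.20 under quantile and −0.21 under equal-fragment scaling, and for the difference in response −0.46 and −0.62.

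Signs turned for Aldoa (−0.92), Gapdh (−0.46) and Ldha (−0.45) in WT and Gapdh (−0.65), Pgk1 (−0.45) and Ldha (−0.80) in Pim1-/- cells after LPS under quantile scaling, and there also for Slc2a1 between untreated genotypes (0.0019), Aldoa (0.12) and Ldha (0.00098) between genotypes after LPS and Aldoa in the difference (0.044). With equal fragments they turned for Aldoa (−0.59) and Gapdh (−0.33) in WT, Pfkl (−0.29), Gapdh (−0.61), Pgk1 (−0.18) and Ldha (−0.60) in Pim1-/- cells, Slc2a1 (0.058) and Hk1 (0.0085) between untreated genotypes and Aldoa (0.13) after LPS. Median-ratio scaling turned Gapdh (−0.038) and Ldha (−0.023) in Pim1-/- cells. Leaving out a library turned values near 0, for Aldoa in Pim1-/- cells (−0.060 to 0.036, positive without untreated replicate 3 or LPS replicate 2) and for Slc2a1 between untreated genotypes (−0.059 to 0.010, positive without Pim1-/- replicate 2). The cause of these shifts was not tested. FPKM hold no counts, so precision rests on the libraries' spread and the estimated depth.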
